A study of Danio rerio with 6 samples.

Results

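The genes described here encode the cues that steer growing axons and blood vessels, and the receptors that read them. They were taken from the deposited expression table by gene name. The name rule covered the semaphorins of classes 3 to 7, the plexins, the Slit and Robo families, the netrins, the Unc5 receptors, the Eph receptors and the ephrins. It found 89 of the 32057 genes of the table, of which 51 encode ligands and 37 encode receptors. The 1 remaining gene, *unc50*, shares only the first letters of its name with the Unc5 receptors and was kept apart. The 89 rows carry 87 names, because *plxnb2a* (ENSDARG00000003811 and ENSDARG00000094799) and *robo2* (ENSDARG00000014891 and ENSDARG00000078366) each stand under 2 identifiers. A newer list of zebrafish gene names calls the *sema6d* of the table *sema6ca*, and files *sema6e* and *sema3bl* under the class 6 C and class 3 G semaphorins. The names of the table are used throughout.

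Cells carrying EGFP were sorted from zebrafish embryos of the line Tg (*fli1a*: EGFP) at 28 hpf and their RNA was sequenced. Embryos had been injected at the 1-cell stage with a splice-modifying *nlrc3* morpholino (*nlrc3* MO, 3 samples) or with a standard morpholino (control MO, 3 samples). A morpholino is an antisense oligonucleotide that blocks a transcript in the early embryo. The control MO was injected at a lower concentration than the *nlrc3* MO, so the amount of morpholino and its target cannot be told apart. All 6 samples share the transgene, in which the promoter of the endothelial transcription factor gene *fli1a* drives EGFP, and no uninjected embryos are among them. The labels do not say whether the samples of a group came from separate clutches, so the p-values measure only the spread between these samples. The study made the comparison to learn how *nlrc3* acts on emerging hematopoietic stem and progenitor cells, and the question here is which guidance genes differed with it.

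As background, semaphorins act through plexins, and the secreted class 3 semaphorins mostly need a neuropilin as well. Slit proteins act through Robo receptors, and netrins act through Dcc and the Unc5 receptors. Ephrins are bound to the membrane and signal through Eph receptor tyrosine kinases on the neighbouring cell, in both directions. Endothelial cells use several of these systems. *plxnd1* restrains sprouting of zebrafish trunk vessels in answer to class 3 semaphorins, *efnb2a* and the *ephb4* genes mark artery and vein, and *robo4* is a Robo gene of endothelium. Neural crest, head mesenchyme and neural cells make many of the same cues and receptors.

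Levels are given as FPKM, fragments relative to transcript length and to the mapped fragments of the library, which are per length and so can be set side by side between genes. Summed over the table, each *nlrc3* MO sample had 678620 to 687387 FPKM and each control MO sample 524846 to 525567 FPKM, and 14 globin genes held 34.5% to 34.8% and 15.6% to 15.7% of these sums. The read depth is unknown. The targeted gene *nlrc3* had 0.26, 0.15 and 0.17 FPKM in the *nlrc3* MO samples, against 0.82, 0.70 and 1.09 FPKM in the control MO samples. Of 20 endothelial markers in the sorted cells, *plvapa* was too low to test. The whole list summed to 929.8 to 965.9 FPKM in the *nlrc3* MO samples and 1200.0 to 1221 FPKM in the control MO samples. The list had 3 of its 19 tested genes called lower, against 20.4% of all tested genes. Among them was *fli1a*, the gene behind the sort, at 90.6 ± 3.13 FPKM in *nlrc3* MO and 205 ± 2.76 FPKM in control MO (SD, n = 3 each). After median-of-ratios scaling of the libraries 1 of the 3, *egfl7*, was called lower (-1.17 on the log2 scale), and *fli1a* (-0.96) and *sox18* (-0.81) lost the call. The samples also held markers of other cells. The 19 markers of neural crest and head mesenchyme summed to 15.5 to 16.7 FPKM in the *nlrc3* MO samples and 794.2 to 819 FPKM in the control MO samples. This list had 17 genes called lower and 1, *mitfa*, called higher. Without the genes that reached 0.5 FPKM only in control MO, 10 of 12 were called lower. *mitfa* reached 0.5 FPKM only in *nlrc3* MO.

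Most guidance genes were lower in the *nlrc3* MO samples. Genes that reached 0.5 FPKM in 3 or more samples were tested, and 66 of the 89 guidance genes did. A gene was called if limma gave an adjusted p under 0.05 (Benjamini-Hochberg over all tested genes) and a fold change above 2 or under 0.5 on the log2(FPKM + 0.1) scale, where changes of low genes come out too small. Of the 66 tested genes, 40 were called lower in *nlrc3* MO (60.6%, against 20.4% of all 15155 tested genes) and 2 were called higher (3.03%, against 4.89% of all tested genes). Without the fold limit, 55 passed the adjusted p as lower (background 42.9%) and 5 as higher (background 20.2%), and 6 did not pass. Calls fell on both sides of the signalling pairs, with 24 of 38 tested ligands (63.2%) and 16 of 27 tested receptors (59.3%) called lower. Without the genes that reached the filter only through control MO these were 13 of 27 ligands and 12 of 23 receptors. The same count over all tested genes was 2302 of 14319. Here and below, the genes left out had every control MO sample and no *nlrc3* MO sample at 0.5 FPKM or more. *sema3d*, *sema5a*, *sema6e*, *epha3* and *plxnb1a*, all called lower, also needed control MO to pass. They had fewer than 3 *nlrc3* MO samples at 0.5 FPKM and stay in these counts. The median log2 fold change was -1.36 for all tested guidance genes, -1.61 for ligands and -1.33 for receptors, beside -0.22 for all tested genes.

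Some of this count was built into the filter. Of the 66 genes, 15 reached the filter only through their control MO samples and so had to differ, and 1 (*sema4e*) reached it only through its *nlrc3* MO samples, while 5.52% of all tested genes passed only through control MO. A count over all listed genes avoids that limit. Over all 89 listed genes, the groups overlapped in 19. They did not overlap and *nlrc3* MO was lower in 63 (70.8%, against 26.8% of all listed genes), and it was higher in 7 (against 11.8%). These 2 backgrounds are low, because 7462 of the 32057 listed genes were at 0 in every sample and no guidance gene was. Of all tested genes, 46.1% did not overlap and were lower in *nlrc3* MO. Of the 26 guidance genes with a mean of at least 5 FPKM over all samples, 16 were called lower (61.5%, against 14.2% of tested genes at that level) and 0 higher by limma (against 4.23%), although 2 of them, *plxnd1* and *sema3fb*, were higher at an adjusted p under 0.05 and also at an unadjusted p under 0.05. The count at 5 FPKM still held *sema3e* and *epha4b*, which reached the filter only through control MO, and *sema3d*, which needed control MO to pass. A mean over all samples can also be reached through high control MO values alone. The 5 genes that passed as higher were *plxnd1*, *plxnc1*, *sema3fb*, *sema4aa* and *sema4e*.

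The scaling of the libraries shifted all genes. After median-of-ratios scaling all tested genes had a median of -0.01 on the log2 scale, and 36 guidance genes were called lower (background 16.4%) and 3 higher (background 7.78%). The median of the guidance genes was then -1.16. In the bulk RNA of sorted cells, fewer cells of a type and less RNA per cell cannot be told apart. The neural crest and head mesenchyme markers moved with the members, as given above, and so did the 10 sclerotome and fibroblast markers, at 55.0 to 56.7 FPKM in the *nlrc3* MO samples and 474.7 to 478.6 FPKM in the control MO samples, with 9 of 9 tested genes called lower. For the sclerotome and fibroblast list this was 6 of 6 without the genes that reached the filter only through control MO. After median-of-ratios scaling it was 8 of 9. The part of these markers in the counts of guidance genes was not tested.

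**Figure D1:**
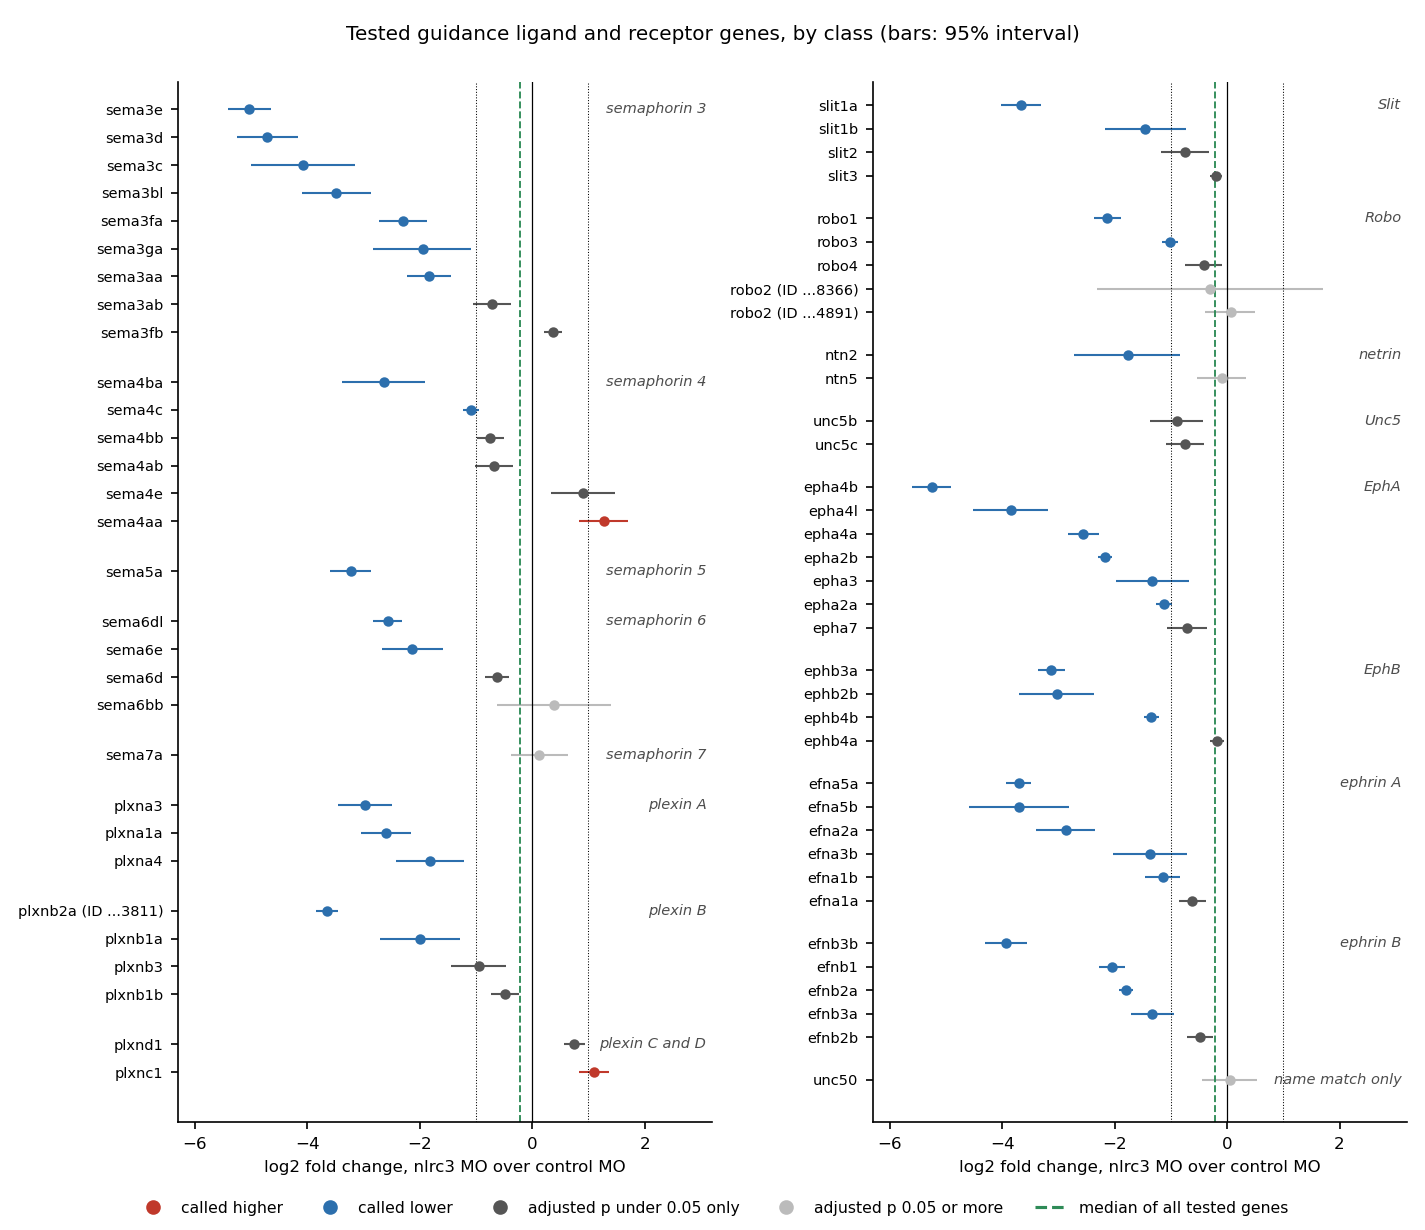
Log2 fold change of each of the 66 tested guidance genes, *nlrc3* MO over control MO, with the 95% interval from limma as a bar (n = 3 each), grouped by class. Dotted lines mark fold changes of 0.5 and 2, the dashed green line the median of all tested genes (-0.22); 40 genes lie in blue as called lower and 2, *plxnc1* and *sema4aa*, in red as called higher.

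Class 3 semaphorins, the secreted ligands, held the 3 largest differences among the ligands. *sema3e* (ENSDARG00000036571), a ligand that binds Plexin D1 without a neuropilin in mouse, had 0.26, 0.39 and 0.43 FPKM in the *nlrc3* MO samples, against 14.70, 14.96 and 14.47 FPKM in the control MO samples. *sema3d* (ENSDARG00000017369), a cue for migrating neural crest and axons in zebrafish, had 0.40, 0.88 and 0.49 FPKM in *nlrc3* MO, against 17.05, 17.21 and 17.27 FPKM in control MO. Both were thus among the more abundant semaphorins of the control MO samples and stood below 1 FPKM in every *nlrc3* MO sample. The log2 fold change was -5.03 for *sema3e* (SE 0.17, adjusted p = 2.18e-07) and -4.71 for *sema3d* (SE 0.24, adjusted p = 1.86e-06). *sema3e* was 1 of the 15 genes that reached the filter only through control MO. *sema3d* needed its control MO samples to pass as well, with 1 *nlrc3* MO sample above 0.5 FPKM.

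The other class 3 genes were spread more widely. Of 12 listed, 9 were tested, 7 were called lower (background 20.4%), and the median log2 fold change was -2.30. Of these 7, 4 reached the filter only through control MO. Without them 3 of 5 tested genes were called lower (background 2302 of 14319). *sema3d*, 1 of these 3, needed its control MO samples to pass as well. *sema3fa* (1.5, 1.56 and 0.97 FPKM in *nlrc3* MO, 7.27, 6.67 and 6.69 FPKM in control MO) fell, with a log2 fold change of -2.30. *sema3fb* went the other way, with 12.60, 14.51 and 13.77 FPKM in *nlrc3* MO and 10.44, 10.77 and 10.27 FPKM in control MO. Class 3 F semaphorins repel axons and lymphatic and blood endothelium through Neuropilin 2 in mammals. The log2 fold change of *sema3fb* was 0.37 (SE 0.068, adjusted p = 0.0021), under the fold limit, and it was 0.59 after median-of-ratios scaling and -0.00 after TPM scaling.

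The class 3 A pair, repellents of axons and of endothelial sprouts, both fell and to different extents. *sema3aa* had 0.73, 0.84 and 0.95 FPKM in *nlrc3* MO against 3.15, 2.93 and 3.70 FPKM in control MO (log2 fold change -1.84). *sema3ab* had 8.24, 6.56 and 5.33 FPKM in *nlrc3* MO against 10.90, 11.35 and 10.61 FPKM in control MO (log2 fold change -0.72, adjusted p = 0.00348). *sema3ga* had 0.49, 0.13 and 0.37 FPKM in *nlrc3* MO against 1.23, 1.62 and 1.52 FPKM in control MO and was called lower at -1.95. It reached the filter only through control MO and lost the call with a pseudocount of 1. Its copy *sema3gb*, at 0.30 to 0.37 FPKM and 0.29 to 0.57 FPKM, overlapped and was too low to test. In sum, class 3 semaphorins had 23.0 to 25.9 FPKM in the *nlrc3* MO samples and 70.9 to 72.0 FPKM in the control MO samples, and *sema3fb* was the highest of them in *nlrc3* MO while *sema3d* was in control MO.

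The class 4 semaphorins, which are bound to the membrane and act mainly through B plexins, moved in both directions. Of 6 tested genes 2 were called lower (background 20.4%) and 1 higher (background 4.89%), and the median log2 fold change was -0.71. Without *sema4ba*, which reached the filter only through control MO, 1 of 5 was called lower. That is near the share of all tested genes counted in this way (2302 of 14319). *sema4c*, a ligand of Plexin B2 in mammals and the most abundant of the class, had 8.99, 9.56 and 8.46 FPKM in *nlrc3* MO and 19.14, 18.67 and 19.78 FPKM in control MO. Its log2 fold change was -1.09 (SE 0.063, adjusted p = 4.34e-06), and -0.87 after median-of-ratios scaling, which no longer met the fold limit. The call higher was *sema4aa*, with 1.96, 2.72 and 2.69 FPKM in *nlrc3* MO and 0.94, 1.04 and 0.87 FPKM in control MO. Every *nlrc3* MO value was above every control MO value, and the log2 fold change was 1.27 (SE 0.18, adjusted p = 0.000599). It no longer met the fold limit with a pseudocount of 1 or with TPM scaling (0.94). *sema4e* had 0.74, 0.87 and 0.94 FPKM in *nlrc3* MO and 0.35, 0.49 and 0.38 FPKM in control MO, with a log2 fold change of 0.91 (adjusted p = 0.0131). *sema4aa* and *sema4e* were chosen for mention after their values were seen.

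Of classes 5 and 6, both transmembrane, 3 of 5 tested genes were called lower (background 20.4%). Of the 3, *sema5a* and *sema6e* needed their control MO samples to pass the filter. *sema5a*, which carries thrombospondin repeats, had 0.56, 0.57 and 0.42 FPKM in *nlrc3* MO and 5.35, 5.72 and 5.83 FPKM in control MO. It fell by 3.23 on the log2 scale (SE 0.16, adjusted p = 1.67e-06). *sema6dl*, a ligand of A plexins, was the most abundant of class 6 over all samples, though *sema6d* was higher in *nlrc3* MO (6.01 against 2.79 FPKM). *sema6dl* had 2.41, 3.08 and 2.87 FPKM in *nlrc3* MO and 17.83, 15.48 and 17.64 FPKM in control MO. It fell by 2.57 (SE 0.11, adjusted p = 8.15e-07), *sema6e* by 2.13 and *sema6d* by 0.62. *sema6bb* (0.50 to 1.09 FPKM in *nlrc3* MO, 0.25 to 0.78 FPKM in control MO) overlapped between the groups. *sema7a*, a ligand held by a lipid anchor that binds Plexin C1 in mammals, had 1.51, 1.22 and 1.91 FPKM in *nlrc3* MO and 1.20, 1.68 and 1.33 FPKM in control MO. Its groups overlapped and it did not pass the test (log2 fold change 0.12, 95% interval -0.38 to 0.63, adjusted p = 0.643).

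**Figure D2:**
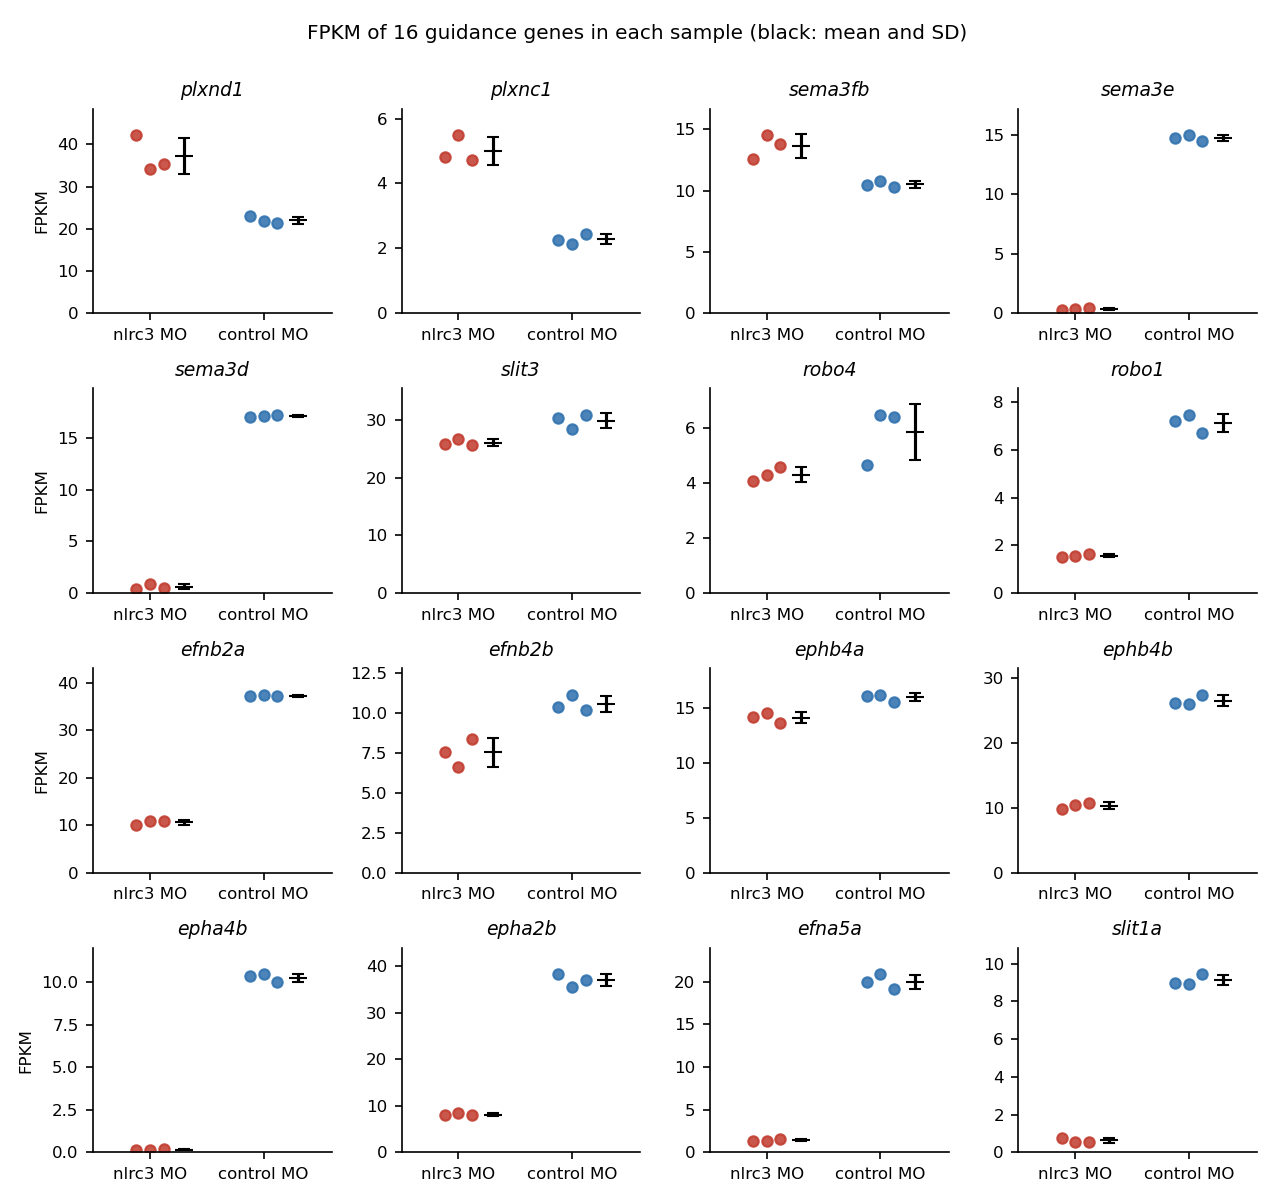
FPKM of 16 guidance genes in each sample, with the 3 *nlrc3* MO samples on the left in red and the 3 control MO samples on the right in blue, and the mean and SD in black. *plxnd1*, *plxnc1* and *sema3fb* (log2 fold change -0.00 after TPM scaling) lie higher in *nlrc3* MO, *ephb4a* and *slit3* lie slightly lower (0.04 and 0.02 after median-of-ratios scaling), and *sema3e*, *sema3d* and *epha4b* are below 1 FPKM in *nlrc3* MO.

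The plexins, receptors of the semaphorins, parted by class. A plexins, which work with neuropilins, had 3 of 3 tested genes called lower (background 20.4%). Without *plxna4*, which reached the filter only through control MO, this was 2 of 2. *plxna3* had 0.87, 0.77 and 1.38 FPKM in *nlrc3* MO against 7.69, 8.2 and 9.17 FPKM in control MO (log2 fold change -2.97, SE 0.21, adjusted p = 1.15e-05). *plxna1a* had 1.04, 0.93 and 0.61 FPKM in *nlrc3* MO against 5.82, 5.48 and 5.49 FPKM in control MO (log2 fold change -2.60, SE 0.19, adjusted p = 1.62e-05). The class summed to 2.18 to 2.49 FPKM in *nlrc3* MO and 15.03 to 16.02 FPKM in control MO. *plxna4* was called lower at -1.82 and lost the call with a pseudocount of 1 or a filter at 1 FPKM, and *plxna2*, at 0.10 to 0.35 FPKM and 0.42 to 0.55 FPKM, was too low to test.

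Of the B plexins, 2 of 4 tested genes were called lower (background 20.4%). *plxnb2a* (ENSDARG00000003811) was the most abundant over all samples, though *plxnb1b* was higher in *nlrc3* MO (2.45 against 1.47 FPKM). This row of *plxnb2a* had 1.42, 1.58 and 1.40 FPKM in *nlrc3* MO against 19.94, 19.34 and 19.45 FPKM in control MO. Its log2 fold change was -3.65 (SE 0.083, adjusted p = 3.42e-08), the largest among the plexins. The other row of that name was listed at 0 in every *nlrc3* MO sample and had 0.46 to 0.60 FPKM in control MO, too low to test. The other tested genes of the class had log2 fold changes between -2 and -0.49.

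Both tested C and D plexins were higher in *nlrc3* MO. *plxnd1* (ENSDARG00000086057), the receptor through which class 3 semaphorins guide trunk vessels, had 42.20, 34.21 and 35.27 FPKM in *nlrc3* MO and 22.94, 21.91 and 21.27 FPKM in control MO. It rose by a log2 fold change of 0.75 (SE 0.081, 95% interval 0.56 to 0.94, adjusted p = 0.000128), under the fold limit. This was 0.96 after median-of-ratios scaling and 0.37 after TPM scaling, and it passed the adjusted p under both. The paper reports by qPCR that mRNA of the Notch target *hey1* rescued *plxnd1* in *nlrc3* mutants, which implies a lower level there. The rise here, in sorted cells of morpholino-injected embryos, goes the other way, and the reason was not tested. *plxnc1*, known in mammals as a receptor of Semaphorin 7A on blood cells among others, had 4.82, 5.49 and 4.71 FPKM in *nlrc3* MO and 2.27, 2.13 and 2.45 FPKM in control MO. It rose by 1.1 (SE 0.11, adjusted p = 9.49e-05) and was called, although with a pseudocount of 1 (0.87) or TPM scaling (0.74) it no longer met the fold limit. The 8 myeloid markers moved in the same direction, at 1242 to 1265 FPKM in the *nlrc3* MO samples and 555.8 to 561.3 FPKM in the control MO samples with 6 of 8 called higher, and their part in the *plxnc1* difference was not tested. With *plxnd1* among them, the plexins summed to 47.4 to 54.6 FPKM in *nlrc3* MO and 66.6 to 68.4 FPKM in control MO.

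Among the Slit ligands, *slit3* held most of the signal in both groups. It had 25.90, 26.78 and 25.63 FPKM in *nlrc3* MO and 30.40, 28.54 and 30.93 FPKM in control MO. The groups did not overlap, and the log2 fold change was -0.20 (SE 0.046, adjusted p = 0.00703), close to the median of all genes and 0.02 (adjusted p = 0.723) after median-of-ratios scaling. *slit1a* (ENSDARG00000044954), which acts on retinal axons in the optic tectum, had 0.78, 0.56 and 0.56 FPKM in *nlrc3* MO and 8.99, 8.95 and 9.43 FPKM in control MO, and fell by 3.67 (SE 0.15, adjusted p = 6.51e-07). *slit1b* was called lower at -1.46, but it reached the filter only through control MO and lost the call with a pseudocount of 1 or a filter at 1 FPKM. *slit2*, a cue for axons and vessels, had 0.89, 1 and 0.85 FPKM in *nlrc3* MO and 1.89, 1.45 and 1.49 FPKM in control MO (log2 fold change -0.75, adjusted p = 0.00857).

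The Robo receptors followed no single pattern. *robo1*, a receptor of Slit proteins on axons and endothelium, had 1.49, 1.55 and 1.62 FPKM in *nlrc3* MO and 7.22, 7.47 and 6.73 FPKM in control MO, and fell by 2.13 (SE 0.10, adjusted p = 1.44e-06). *robo3*, which lets commissural axons cross the midline, had 6.23, 6.53 and 6.78 FPKM in *nlrc3* MO and 13.48, 13.32 and 13.02 FPKM in control MO, and fell by 1.02 (SE 0.063, adjusted p = 5.91e-06). Without *nlrc3* MO sample 1 (-0.99), with a pseudocount of 1 (-0.93) or after median-of-ratios scaling (-0.80) it no longer met the fold limit. *robo4*, the endothelial member, had 4.07, 4.29 and 4.59 FPKM in *nlrc3* MO and 4.68, 6.49 and 6.42 FPKM in control MO. Control MO sample 1 lay next to the *nlrc3* MO samples, and the log2 fold change of -0.42 (95% interval -0.75 to -0.09, adjusted p = 0.032) did not pass after median-of-ratios scaling (-0.21, adjusted p = 0.236). Nor did *robo4* pass without *nlrc3* MO sample 1 (adjusted p = 0.0808) or 2 (0.0706), or without control MO sample 2 (0.11) or 3 (0.11). Both rows of *robo2* overlapped between the groups, at 0.10 to 1.58 FPKM in *nlrc3* MO and 0.30 to 1.58 FPKM in control MO.

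Netrins and Unc5 receptors were low in both groups. No netrin reached 2 FPKM in any sample. *ntn5*, the most abundant netrin, had 1.18, 1.22 and 0.90 FPKM in *nlrc3* MO and 1.19, 1.13 and 1.22 FPKM in control MO. These values overlapped, with a log2 fold change of -0.10 (95% interval -0.54 to 0.33, adjusted p = 0.653), which was 0.10 after median-of-ratios scaling. *ntn2* was called lower at -1.77 from at most 0.72 FPKM. It too reached the filter only through control MO, and it lost the call with a pseudocount of 1 or a filter at 1 FPKM. *ntn1a* (0.13 to 0.25 FPKM in *nlrc3* MO, 0.26 to 0.42 FPKM in control MO) and *ntn1b* (0.09 to 0.34 FPKM and 0.15 to 0.25 FPKM), attractants of axons at the midline, were too low to test. *ntn4* was listed at 0 in all samples but control MO sample 3, where it had 0.07 FPKM.

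Of the Unc5 receptors, which mediate repulsion by netrins, 2 of 5 could be tested. *unc5c* had 2.19, 2.03 and 2.69 FPKM in *nlrc3* MO and 3.84, 4.39 and 3.55 FPKM in control MO (log2 fold change -0.75, SE 0.15, adjusted p = 0.00287). *unc5b*, a receptor of endothelial tip cells in mouse, had 0.69, 0.58 and 0.77 FPKM in *nlrc3* MO and 1.49, 1.37 and 1.19 FPKM in control MO (log2 fold change -0.90, SE 0.20, adjusted p = 0.0057). Both were lower in every *nlrc3* MO sample, and both missed the fold limit. After TPM scaling both met it (-1.29 for *unc5b* and -1.13 for *unc5c*). *unc50*, the name match outside these families, had 6, 9.63 and 11.18 FPKM in *nlrc3* MO and 9.10, 8.46 and 7.63 FPKM in control MO and overlapped.

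Of the Eph receptors and of the ephrins, 9 of 11 tested genes each were called lower (background 20.4%). Without the genes that reached the filter only through control MO, these were 6 of 8 and 5 of 7 (background 2302 of 14319). In each family 11 of 11 passed the adjusted p as lower (background 42.9%). The Eph receptors summed to 47.4 to 49.7 FPKM in *nlrc3* MO against 141.8 to 145.2 FPKM in control MO, and the ephrins to 39.7 to 44.0 FPKM against 125.5 to 129.1 FPKM. These sums are a description and were not tested.

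The B ephrins are transmembrane and signal back into the cell that carries them. *efnb2a* (ENSDARG00000020164), the arterial ephrin, had 10.03, 10.94 and 10.96 FPKM in *nlrc3* MO and 37.26, 37.55 and 37.19 FPKM in control MO. It fell by 1.8 (SE 0.051, adjusted p = 1.02e-07), a ratio of 0.287 on the log2(FPKM + 0.1) scale. By qPCR, however, the paper reports ephrin B2 as not altered with loss of *nlrc3*, without naming the copy. The paper also found no notable vascular abnormality when staining for *kdrl* and the arterial marker *dlc*. The other copy, *efnb2b*, had 7.57, 6.59 and 8.39 FPKM in *nlrc3* MO and 10.35, 11.13 and 10.15 FPKM in control MO. It fell by 0.49 (SE 0.098, adjusted p = 0.00331). *efnb3b*, whose mouse ortholog is a midline repellent of axons, had 0.30, 0.35 and 0.39 FPKM in *nlrc3* MO and 6.73, 7.40 and 6.04 FPKM in control MO and fell by 3.93 (SE 0.16, adjusted p = 6.39e-07), having reached the filter only through control MO. *efnb1*, which acts in the neural crest and the forming skull in mammals, fell by 2.05 and *efnb3a* by 1.33.

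Among the EphB receptors the *ephb4* pair, the venous receptors of Ephrin B2, did not move alike. *ephb4b* had 9.81, 10.48 and 10.77 FPKM in *nlrc3* MO and 26.15, 26.02 and 27.49 FPKM in control MO, and fell by 1.35 (SE 0.056, adjusted p = 6.75e-07). *ephb4a* (ENSDARG00000100725) had 14.23, 14.58 and 13.64 FPKM in *nlrc3* MO and 16.17, 16.25 and 15.58 FPKM in control MO. The groups of *ephb4a* did not overlap, but the log2 fold change was -0.18 (95% interval -0.30 to -0.05, adjusted p = 0.0193), about that of the median gene. It was 0.04 (adjusted p = 0.522) after median-of-ratios scaling. It also did not pass without *nlrc3* MO sample 3 (adjusted p = 0.0519) or control MO sample 1 (0.0611) or 2 (0.0609). *ephb3a*, whose mammalian ortholog acts in axon guidance and in gut epithelium, had 1.34, 1.54 and 1.29 FPKM in *nlrc3* MO and 12.81, 12.51 and 13.34 FPKM in control MO, and fell by 3.13 (SE 0.10, adjusted p = 1.84e-07).

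EphA receptors were called lower in 6 of 7 tested genes (background 20.4%), with a median log2 fold change of -2.17. Without *epha4b* and *epha4l*, which reached the filter only through control MO, this was 4 of 5, with *epha3*, which needed control MO too, still counted. After median-of-ratios scaling it was 5 of 7, without *epha2a* (-0.91). *epha4b* (ENSDARG00000011600), a receptor of segment boundaries in the hindbrain and somites, had 0.15, 0.17 and 0.19 FPKM in *nlrc3* MO and 10.34, 10.44 and 9.99 FPKM in control MO. On the log2(FPKM + 0.1) scale that was the largest difference of any guidance gene tested, at -5.26 (SE 0.14, adjusted p = 9.01e-08). With a pseudocount of 1, *sema3e* and *sema3d* (-3.53 each) differed more than *epha4b* (-3.27). *epha4b* reached the filter only through control MO. *epha2b* was the most abundant EphA receptor over all samples, though *epha2a* was higher in *nlrc3* MO (9.54 against 8.12 FPKM). *epha2b* had 7.94, 8.49 and 7.94 FPKM in *nlrc3* MO and 38.27, 35.67 and 37.14 FPKM in control MO, and fell by 2.17 (SE 0.053, adjusted p = 5.10e-08). *epha6* was the 1 EphA gene that was higher in every *nlrc3* MO sample, at 0.31 to 0.52 FPKM against 0.06 to 0.19 FPKM in control MO. It was too low to test and was chosen for mention after its values were seen.

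The A ephrins, ligands of the EphA receptors held by a lipid anchor, were called lower in 5 of 6 tested genes (background 20.4%). This was 4 after median-of-ratios scaling, and 2 of 3 without the genes that reached the filter only through control MO. *efna5a*, known for mapping retinal axons in the tectum, had 1.39, 1.34 and 1.59 FPKM in *nlrc3* MO and 19.97, 20.85 and 19.17 FPKM in control MO, and fell by 3.71 (SE 0.093, adjusted p = 5.61e-08). Its copy *efna5b* was listed at 0 in every *nlrc3* MO sample and had 1.83, 0.86 and 1.1 FPKM in control MO. *efna1a* was the most abundant of the class in *nlrc3* MO, with 10.23, 8.57 and 9.60 FPKM, against 15.73, 12.80 and 15.43 FPKM in control MO. It fell by 0.62 (SE 0.10, adjusted p = 0.00116), the smallest difference of the class. In mammals the gene is induced in endothelium by inflammatory signals.

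**Figure D3:**
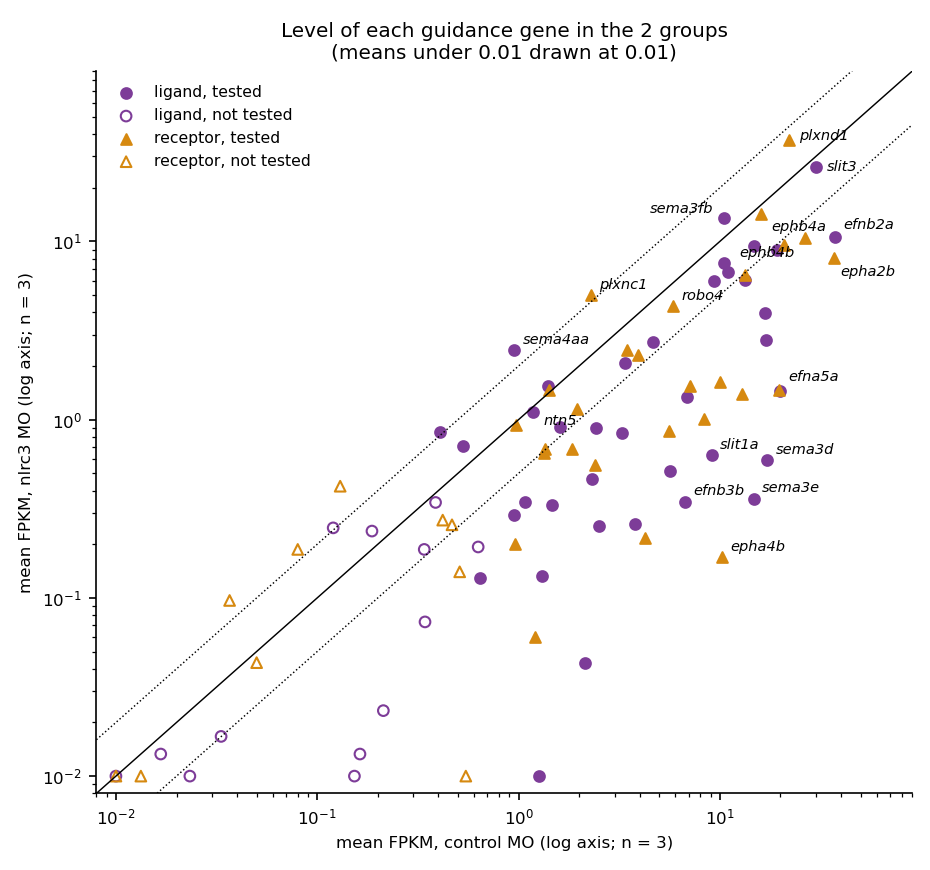
Mean FPKM of each ligand and receptor in *nlrc3* MO (vertical, log axis) against control MO (horizontal, log axis; n = 3 each), *unc50* left out. The solid line marks equal levels and the dotted lines a ratio of 0.5 or 2. Of the genes labelled in the plot, *plxnd1*, *plxnc1*, *sema4aa* and *sema3fb* (in FPKM as deposited but not after TPM scaling) lie above the solid line. *epha4b*, *sema3e* and *sema3d* lie farthest below it among the labelled genes. Unlabelled genes such as *sema4e* also lie above it, and some, such as *efna5b* (drawn at 0.01 for *nlrc3* MO), lie farther below.

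The order of the levels therefore differed between the groups. In the *nlrc3* MO samples *plxnd1* was the most abundant guidance gene at 37.2 ± 4.34 FPKM, ahead of *slit3* at 26.1 ± 0.601, *ephb4a* at 14.2 ± 0.475, *sema3fb* at 13.6 ± 0.963, *efnb2a* at 10.6 ± 0.531 and *ephb4b* at 10.4 ± 0.492 (SD, n = 3). In the control MO samples the order was *efnb2a* at 37.3 ± 0.191, *epha2b* at 37.0 ± 1.3, *slit3* at 30.0 ± 1.26, *ephb4b* at 26.6 ± 0.814, *plxnd1* at 22 ± 0.843 and *epha2a* at 20.9 ± 0.983. Within *nlrc3* MO, *ephb4a* and *sema3fb* overlapped, as did *efnb2a* and *ephb4b*. Within control MO, *efnb2a* and *epha2b* overlapped, and *plxnd1* overlapped with *epha2a*. Fewer guidance genes stood at a high level in *nlrc3* MO, with a mean of at least 10 FPKM in 6 genes against 23 in control MO. A mean of at least 1 FPKM was reached by 36 against 59. These counts were not made over all genes, whose median log2 fold change was also below 0 (-0.22), so they have no background. All 89 genes together summed to 248.7 to 250.6 FPKM in the *nlrc3* MO samples and 557.4 to 568.8 FPKM in the control MO samples.

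Ratios of a ligand to its receptor within a sample do not depend on how the library was scaled. For the arterial and venous pair, *efnb2a* to *ephb4a* was 0.705, 0.750 and 0.804 in *nlrc3* MO and 2.30, 2.31 and 2.39 in control MO. The receptor was thus the higher of the pair in every *nlrc3* MO sample and the ligand in every control MO sample. Against *ephb4b*, *efnb2a* stood at 1.02 to 1.04 in *nlrc3* MO and 1.35 to 1.44 in control MO. *sema3e* to *plxnd1* was 0.00992 ± 0.00328 in *nlrc3* MO and 0.668 ± 0.0236 in control MO, and *sema3d* to *plxnd1* was 0.0164 ± 0.00840 and 0.780 ± 0.0347 (SD, n = 3 each). *slit3* to *robo1* was 16.8 ± 0.873 in *nlrc3* MO and 4.21 ± 0.388 in control MO, while *slit3* to *robo4* overlapped, at 5.58 to 6.36 and 4.40 to 6.50. These are ratios of RNA in mixed sorted cells and do not say that ligand and receptor lay in the same or neighbouring cells. Nor do they say that arteries or veins were altered.

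Zebrafish keep a and b copies of many of these genes, and the copies often moved unequally. In 13 pairs both copies were tested, and the ratio of a to b within a sample did not overlap between the groups in 12, all but *efna5a* to *efna5b*. How often the ratio of any 2 tested genes separates was not counted, so this count has no background. Single genes often separated, with 6985 lower and 3452 higher in *nlrc3* MO without overlap among all 15155 tested. As *efna5b* was listed at 0 in every *nlrc3* MO sample, its ratio there rests on the added 0.1 FPKM. Whether that pair kept its ratio cannot be told. The exact permutation test of 3 against 3 gave p = 0.1 for each of these 12, the smallest it can give, and 0.108 after Benjamini-Hochberg adjustment over the 13 pairs. In 11 pairs the ratio differed by more than 1 log2 unit. Only 1 copy was called in 8 pairs and both were called lower in 5. These counts were not made for other pairs of genes and have no background either. Of all tested guidance genes, 60.6% were called lower. The copies *epha4b*, *efnb3b*, *slit1b*, *sema4ba* and *efna5b* reached the filter only through control MO. The calls of these copies were thus partly built in, and so were the separate ratios of the *epha4*, *efnb3* and *sema4b* pairs. *efna5a* to *efna5b* did not separate, and *slit1b* (-1.46) fell less than *slit1a* (-3.67). Reads that 2 near-identical copies share could have been split between them by the authors' counting, so these ratios are uncertain to that extent.

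In 5 of the pairs the copy with the higher mean was not the same in each group. *epha4a* to *epha4b* had a log2 ratio of 2.68 ± 0.29 in *nlrc3* MO and -0.03 ± 0.088 in control MO (SD, n = 3 each), since *epha4a* (1.84, 1.66 and 1.40 FPKM in *nlrc3* MO, 10.32, 9.53 and 10.27 FPKM in control MO) fell less than *epha4b*. The 2 copies were nearly equal in control MO, where either could be the higher in a sample. *efnb3a* to *efnb3b* had 1.17 ± 0.16 in *nlrc3* MO and -1.44 ± 0.30 in control MO. *ephb4a* to *ephb4b* had 0.45 ± 0.099 and -0.73 ± 0.077, and *epha2a* to *epha2b* had 0.23 ± 0.061 and -0.82 ± 0.070. *sema4aa* to *sema4ab* had 0.22 ± 0.061 and -1.73 ± 0.14. The widest gap in which the same copy stayed higher was *sema3fa* to *sema3fb*, at -3.27 ± 0.37 in *nlrc3* MO and -0.60 ± 0.084 in control MO.

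**Figure D4:**
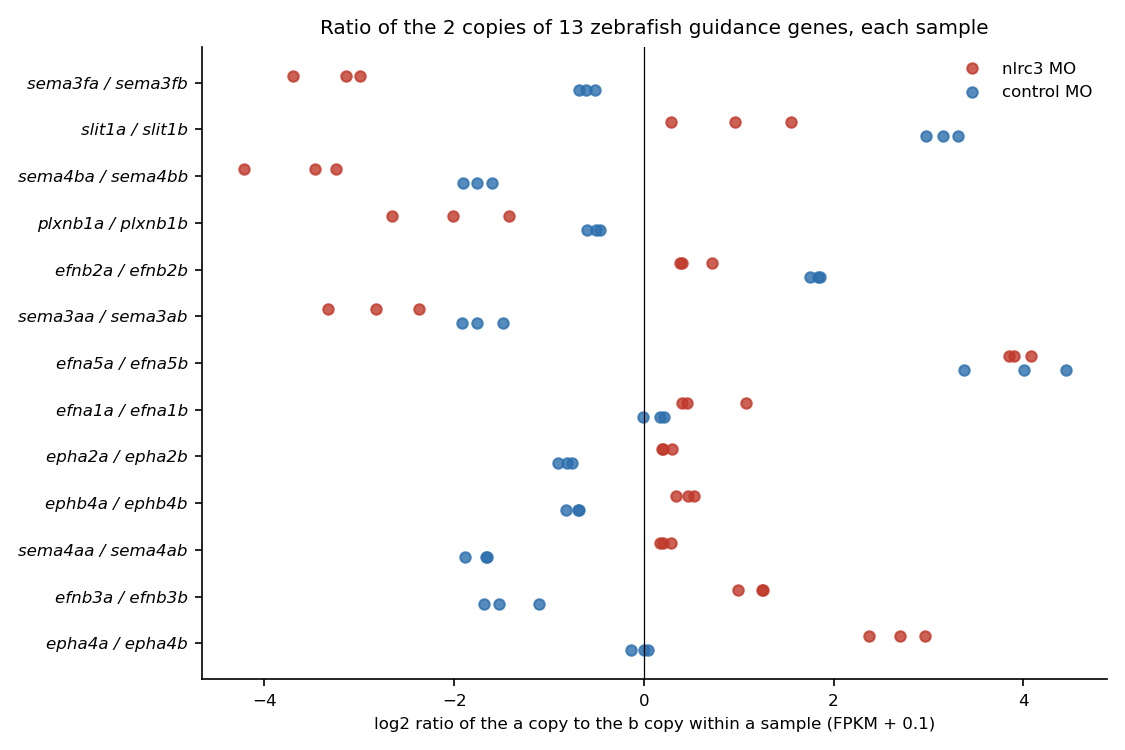
Log2 ratio of the a copy to the b copy (FPKM + 0.1) within each sample for 13 pairs, *nlrc3* MO in red above control MO in blue. Points right of 0 have more a copy. The groups are apart in all pairs except *efna5a* to *efna5b*, whose *nlrc3* MO ratios rest on the added 0.1. In *sema4a*, *epha2*, *ephb4*, *efnb3* and *epha4* the groups lie on opposite sides of 0 or, for *epha4* in control MO, close to it.

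Several guidance genes lie beside each other. In the RefSeq gene order of the zebrafish assembly GRCz12tu, where 83 of the 87 names were found, *sema3ab* and *sema3e* are adjacent, with *sema3d* beyond 1 protein-coding gene. Of these 3, *sema3d* fell by 4.71, *sema3e* fell by 5.03, and *sema3ab*, which lies between them, fell by 0.72. *robo3* and *robo4* are adjacent and had log2 fold changes of -1.02 and -0.42, and *robo1* (-2.13) is adjacent to *robo2*, whose rows did not pass the test. *efna3b* and *efna1b* are adjacent and were called lower at -1.37 and -1.15. Neither call held throughout. *efna3b* reached the filter only through control MO and lost its call with a pseudocount of 1 or a filter at 1 FPKM, and *efna1b* lost its call after median-of-ratios scaling (-0.93) and without *nlrc3* MO sample 1. Adjacent genes of the semaphorin and Robo clusters thus had fold changes of unlike size.

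The genes around these pathways were read from 3 lists. Of 15 co-receptors, 9 were tested. Of these 5 were called lower (55.6%, against 20.4% of all tested genes) and 4 did not pass the adjusted p, with a median log2 fold change of -1.02. After median-of-ratios scaling 3 were called lower, without *nrp1a* (-0.80) and *flrt3* (-0.86). The neuropilins, partners of plexins and of VEGF receptors, were among the most abundant. *nrp2b* had 22.74, 23.71 and 24.97 FPKM in *nlrc3* MO and 57.78, 55.59 and 55.65 FPKM in control MO and fell by 1.24, and *nrp2a* fell by 1.37. *nrp1a* fell by 1.02, whereas *nrp1b* had 19.07, 20.10 and 20.38 FPKM in *nlrc3* MO and 19.23, 18.19 and 19.43 FPKM in control MO, which overlapped (log2 fold change 0.07, adjusted p = 0.287). The netrin and RGM receptor *neo1a* (1.38 ± 0.325 FPKM in *nlrc3* MO, 13.3 ± 0.512 FPKM in control MO) and the Unc5 partner *flrt3* (13.7 ± 0.658 and 28.9 ± 0.646 FPKM) were also called lower, and the netrin receptor *dcc* was at most 0.30 FPKM.

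Among 10 tested other cues, 8 passed the adjusted p as lower and 7 of these were called (70%, against 20.4% of all tested genes), with a median of -2.19. It was 5 of 8 without the genes that reached the filter only through control MO, and 7 of 10 after median-of-ratios scaling. Of the repulsive guidance molecules, which act through Neogenin, *rgmd* had 8.38 ± 1.03 FPKM in *nlrc3* MO and 71.4 ± 1.91 FPKM in control MO, *rgmb* 0.963 ± 0.135 and 10.6 ± 1.1 FPKM, and *rgma* 2.37 ± 0.140 and 8.63 ± 0.108 FPKM (SD, n = 3 each). Of 40 tested intracellular effectors, which carry the signal to the cytoskeleton, 24 were called lower (60%, against 20.4% of all tested genes), with a median of -1.12. Without the fold limit 30 passed as lower and 3 as higher. Without the genes that reached the filter only through control MO, 22 of 37 effectors were called lower. After median-of-ratios scaling 19 of 39 were called lower (background 16.4%). The 3 that passed as higher, *arhgef12a*, *tiam1a* and *nck1b*, had log2 fold changes of 0.42, 0.47 and 0.20. *arhgef12a* is an ortholog of the mammalian exchange factor that binds B plexins. *nrp1b* and the 3 higher effectors were chosen for mention after their values were seen.

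The markers of cell types stood in a wide range beside these lists. Neural crest and head mesenchyme markers had a median log2 fold change of -5.54, sclerotome and fibroblast markers of -2.59 and neural markers of -1.65. The neural list summed to 14.5 to 16.5 FPKM in *nlrc3* MO and 47.3 to 52.3 FPKM in control MO. Of its 16 tested genes, 10 were called lower (background 20.4%). This was 7 of 13 without the genes that reached the filter only through control MO, and 8 of 15 after median-of-ratios scaling. Endothelial markers had a median of -0.14, muscle markers of -0.23 and epidermal markers of 0.19, beside -0.22 for all genes. The muscle list had 1 gene called lower and 1 higher of 14 tested, and the epidermal list 1 called lower of 11. The backgrounds were 20.4% lower and 4.89% higher. The higher muscle gene, *myog*, reached the filter only through *nlrc3* MO. Erythroid and myeloid markers had medians of 1.20 and 1.21, with 7 of 8 and 6 of 8 called higher (background 4.89%). The tested guidance genes with known roles in vessels did not share 1 value. As deposited, *plxnd1* (0.75) and *sema3fb* (0.37) were higher. *ephb4a* (-0.18), *slit3* (-0.20), *robo4* (-0.42), *efnb2b* (-0.49), *sema3ab* (-0.72), *slit2* (-0.75) and *unc5b* (-0.90) were lower but missed the fold limit. Of these, *sema3ab*, *slit2* and *unc5b* met it after TPM scaling. *ephb4b* (-1.35), *efnb2a* (-1.8), *sema3aa* (-1.84), *sema3ga* (-1.95), *robo1* (-2.13), *sema3fa* (-2.30), *sema3d* (-4.71) and *sema3e* (-5.03) were called lower. *sema3ga* and *sema3e* reached the filter only through control MO, and *sema3d* needed its control MO samples to pass. Whether any one guidance gene was made in endothelium or in other sorted cells was not tested.

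**Figure D5:**
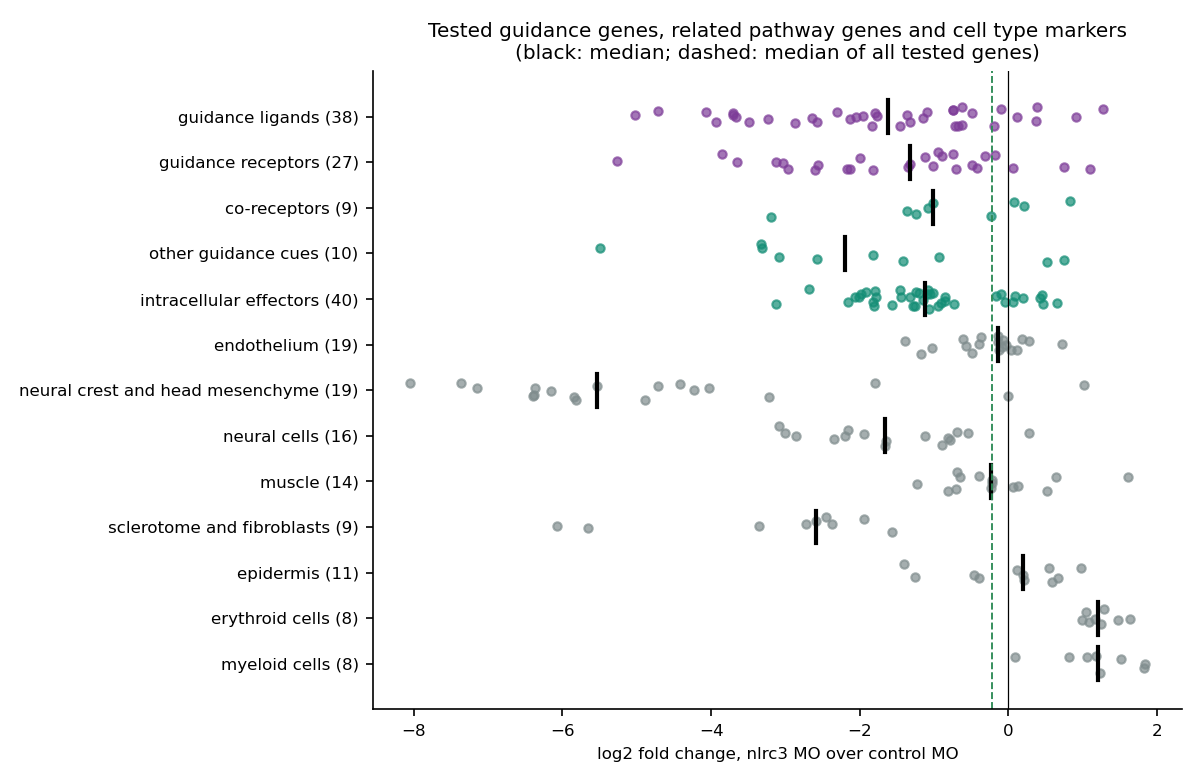
Log2 fold change (*nlrc3* MO over control MO) of each tested gene of the guidance ligands and receptors, of the 3 related lists and of 8 lists of cell type markers, with the number of tested genes in brackets. Black bars are medians and the dashed line the median of all tested genes; the guidance ligands (-1.61) and receptors (-1.33) lie between the endothelial (-0.14) and the sclerotome and fibroblast markers (-2.59).

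The 23 guidance genes that were too low to test had at most 0.80 FPKM in any sample. Beside those already given they included the remaining semaphorins *sema3b*, *sema3h*, *sema4ga*, *sema4gb*, *sema5ba*, *sema5bb* and *sema6ba*, the receptors *ephb1*, *ephb2a*, *ephb6*, *plxnb2b*, *unc5a*, *unc5da* and *unc5db*, and the ephrins *efna2b* and *efna3a*. No fold change is given for them.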

How the data were processed

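RNA sequencing of sorted EGFP+ cells gave 6 samples, grouped by the morpholino in the labels (3 *nlrc3* MO, 3 control MO). The labels and text give 28 hpf, and some of the study's figures an earlier hour. Per the methods, Cutadapt, HISAT2 with Ensembl's zebrafish genome, StringTie and ballgown took the reads to FPKM. The submitters' processing notes name CASAVA 1.8, Bowtie 0.12.2 and a mouse build instead, which do not match the methods. The deposited table of the authors gives FPKM to 2 decimals for 32057 genes. It also holds the authors' own fold change ratio, log2 fold change, p-value and q-value, which were not used. Columns were matched to samples by the group and number in their names and the names in the source data. An FPKM depends on the other genes of the library, so a shift in a few abundant transcripts moves all values. Read depth is unknown, because no step of 1 read could be seen in 2060 low genes (no ratio between samples held for over 3.01% of them), so the precision is that of 3 replicates, and a value of 0 is given only as listed at 0.

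Here log2(FPKM + 0.1) was tested with limma 3.58.1 in R 4.3.3 (lmFit, eBayes with trend) on genes at 0.5 FPKM or more in at least 3 samples, with Benjamini-Hochberg adjustment over 15155 genes. Calls needed an adjusted p under 0.05 and a fold above 2 or under 0.5. The fold limits are those of the methods, which state a p-value under 0.05 without an adjustment, while a figure legend also gives an FDR. The fit was tested on simulated data. Paralog ratios were compared by exact permutation tests in Python 3.11.15 with scipy 1.17.1. Tables and plots used matplotlib 3.10.9, numpy 2.4.6 and pandas 2.3.3.

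The genes and lists were chosen with earlier results of these data known, so lists get counts and medians and no test. Named genes are the up to 12 called genes per direction with the largest fold change with no overlap between groups and an average of 5 FPKM or more in the higher group, the most abundant gene of each class, and 21 genes with known roles in vessels. The most abundant gene was taken by its mean over all samples. Genes of classes with 5 or fewer members are named too. Others named as adjacent genes or as copies were chosen after their values were seen. The alternatives were a filter at 1 FPKM or none, pseudocounts of 1 and 0.01, TPM scaling, median-of-ratios scaling, a replicate block, eBayes without the trend, no fold limit and leaving out each sample in turn. No sequences or coordinates are given, because no genome of the files' build was used here.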

Additional observations from a re-analysis of the deposited data

How the results depend on the processing

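Of 490 values of 35 named genes under the alternatives, 474 kept their direction and their side of the adjusted p of 0.05, and 29 of the genes did so under every alternative run. Values that changed sign were *slit3* (0.02), *ephb4a* (0.04) and *ntn5* (0.10) after median-of-ratios scaling, *sema3fb* (-0.00) and *sema7a* (-0.24) after TPM scaling, and *ntn5* (0.02) and *sema7a* (-0.03) without *nlrc3* MO replicate 3. When 1 sample was left out, *ntn5* lay between -0.18 and 0.02 and *sema7a* between -0.03 and 0.27. The cause was not tested. *robo4* and *ephb4a* lost the adjusted p as given with them, and *robo4* also without the trend (0.0503). *sema3ga* missed the fold limit with a pseudocount of 1. After TPM scaling *unc5b* (-1.29), *unc5c* (-1.13), *slit2* (-1.13), *sema3ab* (-1.1) and *efna1a* (-1.0) were called lower, as were 5126 of all 16469 genes then tested.

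The count of guidance genes called lower lay between 32 (pseudocount 1) and 55 (TPM scaling or no fold limit), and between 38 and 41 when 1 sample was left out. Some of the 55 after TPM scaling, such as *plxna2* and *plxnb2b*, were too low to test as deposited. The count called higher was 0 with a pseudocount of 1 and with TPM scaling, 5 without the fold limit and 2 to 3 when 1 sample was left out. Their median log2 fold change was -0.91 with a pseudocount of 1, -1.51 with 0.01, -1.12 without a filter, -1.33 with a filter at 1 FPKM, -1.79 with TPM scaling, -1.16 with median-of-ratios scaling and -1.42 to -1.3 when 1 sample was left out. Of all 15155 tested genes, 3091 were called lower and 741 higher. These counts became 1944 and 354 with a pseudocount of 1, and 6496 and 3062 without the fold limit. They were 5126 and 328 of 16469 genes tested with TPM scaling. With median-of-ratios scaling they were 2470 and 1171 of 15051 genes tested. When 1 sample was left out they were 2976 to 3127 and 715 to 735.

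Same-numbered samples of the 2 groups did not deviate together (correlations -0.0034 to 0.04, against -0.035 to 0.035 for samples of unlike number). With 3 samples a group, this cannot tell whether same-numbered samples shared a clutch or day. With a replicate block 40 guidance genes were called lower and 2 higher, and 3102 and 743 of all genes. With no read totals, no counting error can be given for genes at low FPKM, and the precision rests on 3 samples a group.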
